A study of Mus musculus with 6 samples.

Results

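Transcripts of arginine, creatine and ornithine metabolism were followed in the kidney of C57BL/6 male mice with cisplatin-induced chronic kidney disease. The 10 genes, taken by their GENCODE symbols from a named list of enzymes among the 56691 genes of the count files, were Ass1, Asl, Arg2, Oat, Prodh, Gatm, Gamt, Ddah1, Ddah2 and Agxt2. The cisplatin group comprised 3 mice that received 4 intraperitoneal injections of cisplatin at 8 mg per kg body weight, and the control group 3 mice that received saline vehicle. All were 9 weeks old at the start and were examined at week 7, with 1 total RNA library per mouse. Whole kidney was sequenced, so that fewer cells of a type and less RNA per cell cannot be told apart in any value below.

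The kidney is the main site at which circulating citrulline is turned into arginine. Argininosuccinate synthase (Ass1) and argininosuccinate lyase (Asl) carry this out in the proximal tubule, and the arginine made there serves as a substrate for nitric oxide, for creatine and, through arginase, for ornithine. Ornithine is broken down by Oat toward glutamate and proline or enters the polyamines. Gatm makes guanidinoacetate, the precursor that Gamt methylates to creatine. Ddah1 and Agxt2 break down asymmetric dimethylarginine, an inhibitor of nitric oxide synthases that rises in kidney disease, and Ddah2 is a paralog of Ddah1.

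The libraries held 21891855 to 25356523 counted read pairs in the cisplatin group and 24111688 to 26627554 in the control group. They were scaled with TMM factors (1.05 to 1.26 in cisplatin and 0.844 to 0.894 in control libraries), and levels are given in CPM, the usual depth-normalised count unit, here relative to the scaled library size. The quasi-likelihood test of edgeR was run for each gene, with p-values adjusted over 15662 genes and a threshold of 0.05. Markers of the kidney were found as labelled. All 20 transcripts of a proximal tubule panel and all 7 of the collecting duct were present, whereas of the 3 adrenal gland markers Cyp11b1 and Cyp21a1 had a mean of 0.0145 CPM or less in both groups, and Star had 0.412 CPM in cisplatin and 0.364 CPM in control libraries. Pairs without an annotated exon on the counted strand made up 6.09% to 9.32% of pairs in cisplatin and 4.63% to 4.86% in control libraries. Their part in the results was not tested.

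All 10 genes passed the test, 7 lower and 3 higher in the cisplatin-treated kidney. Over all tested genes, 47.4% passed it, with 22.8% lower and 24.5% higher. The 10 genes were chosen with earlier results of these data known, so a comparison with shares of all tested genes is not a test of them. On the log2 scale, the 10 genes had a median change of -0.45, against 0.05 over all tested genes. With the mice blocked by replicate number, 7 were again lower and 3 higher (24.2% and 26.1% of all tested genes). Leaving out any 1 library gave 6 to 7 lower and 3 higher (18% to 26.1% and 18.7% to 25.2% of all tested genes). Without control replicate 1 the one lost was Asl. In each of the 10, every cisplatin library lay on one side of every control library, which held for 57.8% of all tested genes. The genes that fell were Gatm, Agxt2, Ass1, Ddah1, Gamt, Prodh and Asl (the last 2 lay at 0.03 and 0.04 on the log2 scale when library totals were used), and those that rose were Arg2, Ddah2 and Oat.

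**Figure D1:**
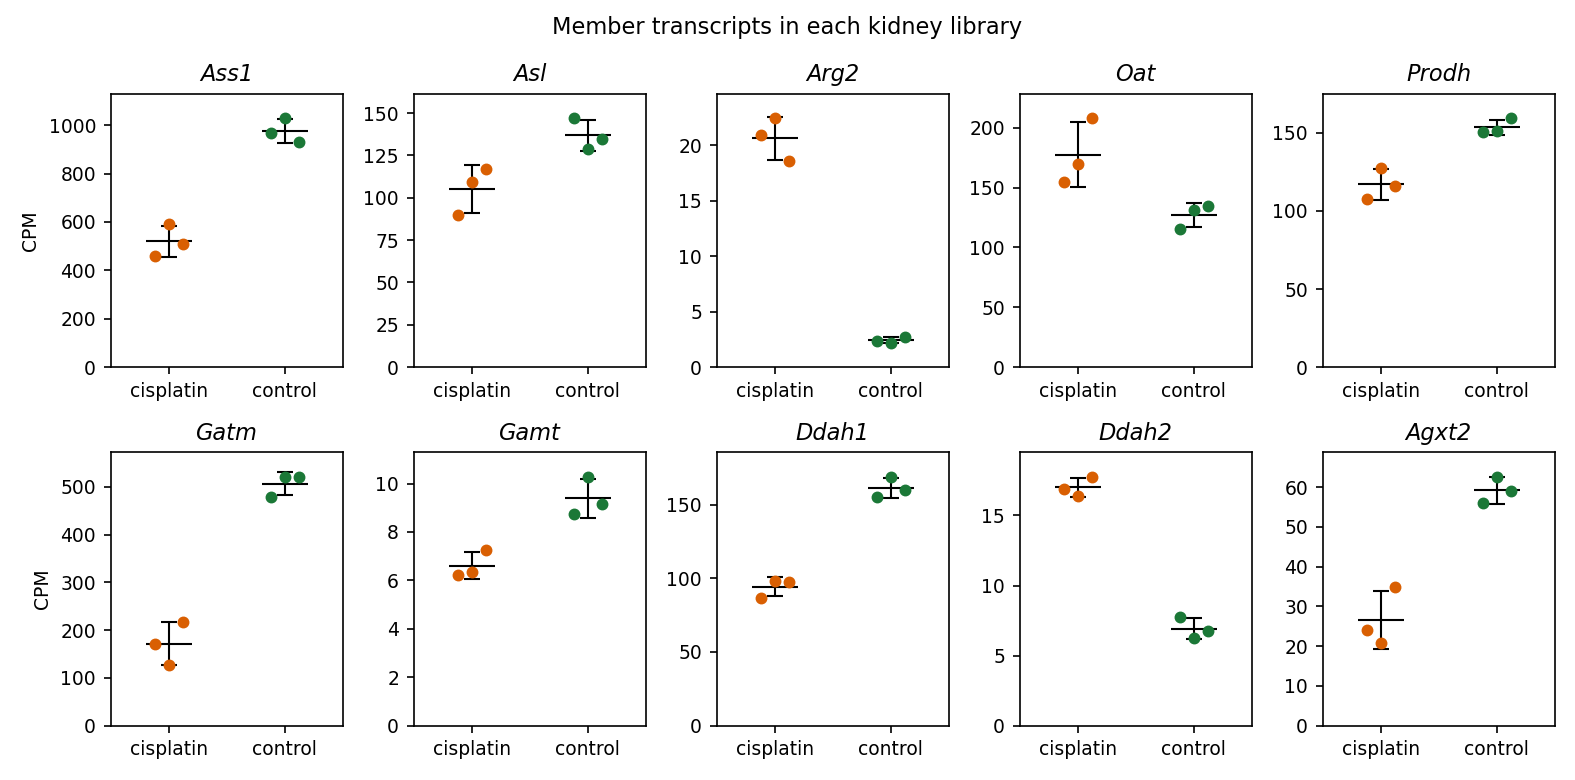
Level of each gene in CPM (y axis, linear from 0) in the 3 cisplatin and the 3 control libraries (x axis); each dot is a library, black marks are means and error bars SD. The groups do not overlap in any panel, and Arg2, Oat and Ddah2 are the genes with the cisplatin libraries above the control libraries.

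Promoter sequences are shown for the 2 genes with an entry that fell most and the 2 with an entry that rose, so that the strings found in each can be read in place. RefSeq promoter windows (250 bases before to 50 bases after the start) were found for 8 of the 10 genes; Asl and Arg2 had no entry. The windows come from a table on GRCm38.p6 and were each found once on the same chromosome of GRCm39, whose coordinates are given. Those of Oat, Ass1 and Prodh lie wholly inside the GENCODE gene spans given below, not at the outer end of the gene. Capitals mark matches, on either strand, to 8 strings of letters that were searched: CAAAGTCCA (bound by HNF4), AGGTCA (the core of many nuclear receptor sites), GTTAAT (part of the HNF1 site), TATAAA (the TATA box), CCAAT (bound by NF-Y), GGGCGG (the GC box bound by Sp1), CACGTG (the E box) and TGATGNAAT (ATF4 with CEBP).
Gatm (chr2:122441709-122442008, minus strand, GRCm39): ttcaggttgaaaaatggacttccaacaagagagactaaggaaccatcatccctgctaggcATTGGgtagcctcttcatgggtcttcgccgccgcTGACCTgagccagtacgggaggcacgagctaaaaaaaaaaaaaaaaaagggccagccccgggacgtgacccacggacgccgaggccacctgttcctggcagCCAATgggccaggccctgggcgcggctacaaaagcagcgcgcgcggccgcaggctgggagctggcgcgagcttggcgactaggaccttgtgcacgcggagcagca
Agxt2 (chr15:10358369-10358668, plus strand, GRCm39): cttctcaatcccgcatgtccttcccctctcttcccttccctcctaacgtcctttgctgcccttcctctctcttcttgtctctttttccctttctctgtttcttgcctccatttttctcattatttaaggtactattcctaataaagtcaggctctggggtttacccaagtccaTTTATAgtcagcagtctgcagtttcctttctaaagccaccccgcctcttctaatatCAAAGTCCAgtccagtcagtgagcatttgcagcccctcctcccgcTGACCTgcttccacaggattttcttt
Ddah2 (chr17:35277761-35278060, plus strand, GRCm39): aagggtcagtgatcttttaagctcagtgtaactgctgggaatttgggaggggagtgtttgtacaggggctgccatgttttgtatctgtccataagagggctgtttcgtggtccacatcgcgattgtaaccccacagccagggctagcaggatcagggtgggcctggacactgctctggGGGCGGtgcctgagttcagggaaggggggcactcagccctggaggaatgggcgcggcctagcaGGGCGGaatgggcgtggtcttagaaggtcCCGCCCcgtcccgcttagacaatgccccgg
Oat (chr7:132178078-132178377, minus strand, GRCm39): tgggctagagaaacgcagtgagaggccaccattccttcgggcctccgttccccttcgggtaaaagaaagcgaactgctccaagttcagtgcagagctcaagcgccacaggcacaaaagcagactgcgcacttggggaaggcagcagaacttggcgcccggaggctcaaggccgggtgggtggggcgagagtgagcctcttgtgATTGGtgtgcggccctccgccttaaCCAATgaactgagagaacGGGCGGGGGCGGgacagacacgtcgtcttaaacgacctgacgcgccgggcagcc

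Agxt2 was the only gene of the 8 with CAAAGTCCA, 21 bases before the start, a string present in 0.475% of the 32851 RefSeq windows. It held 4 CG dinucleotides, against 22 in Gatm, 12 in Ddah2 and 22 in Oat, and a median of 7 over all windows. AGGTCA was found in the windows of Agxt2 and Gatm and in 16.3% of all windows. CCAAT was found in those of Gatm and Oat (37.4% of all), and GGGCGG in those of Ass1, Gamt, Ddah2 and Oat (35.7% of all). GTTAAT and TGATGNAAT were in none of the 8 windows, TATAAA only in Agxt2 and CACGTG only in Ass1, and no match overlapped one to another string. A second, overlapping entry for Agxt2 held the same 3 strings.

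Transcripts of both enzymes that make arginine from citrulline fell with TMM scaling, Ass1 also and Asl not with library totals. Ass1, argininosuccinate synthase, lies on chromosome 2 of GRCm39 from 31352181 to 31410862 and had 460, 590 and 509 CPM in the cisplatin libraries, against 969, 1028 and 929 CPM in the control libraries. Its level was thus far below the control range in every cisplatin library (log2 fold change -0.91, SE 0.116, edgeR adjusted p = 0.000104). Asl, argininosuccinate lyase, on chromosome 5 from 130040099 to 130058088, had 89.6, 109 and 117 CPM in cisplatin and 147, 129 and 135 CPM in control libraries. The groups lay close to each other (log2 fold change -0.38, SE 0.111, edgeR adjusted p = 0.0163). This call was lost without control replicate 1 (log2 fold change -0.33, edgeR adjusted p = 0.0757) and with upper-quartile factors (log2 fold change -0.29, adjusted p = 0.0542), and scaling by library totals gave a log2 fold change of 0.04 (adjusted p = 0.744).

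Arg2, the mitochondrial arginase that splits arginine into ornithine and urea, showed the largest change of the 10. It lies on chromosome 12 from 79177524 to 79203075 and had 607, 669 and 425 counts in the cisplatin libraries, against 57, 45 and 57 counts in the control libraries. Scaled to depth, these were 20.9, 22.4 and 18.5 CPM in cisplatin and 2.40, 2.19 and 2.74 CPM in control libraries. The lowest cisplatin library was thus several times above the highest control library (log2 fold change 3.08, SE 0.133, edgeR adjusted p = 6.38e-08), an 8.44-fold rise, and 99.2% of all tested genes had a lower log2 fold change. On the opposite strand, exons of Vti1b cover 33.8% of the exon bases of Arg2. Counting without regard to strand, which drops pairs that fall on both genes, left a log2 fold change of 2.82 (SE 0.209, edgeR adjusted p = 2.24e-06). The liver-type arginase Arg1 had 9, 24 and 6 counts in the cisplatin libraries, against 1 count in each control library, and did not pass the filter on low counts. It was called higher where that filter was not used (edgeR adjusted p = 3.0e-05) and in DESeq2 (adjusted p = 0.0120).

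Oat, ornithine aminotransferase of the mitochondrial matrix, was also higher. It lies on chromosome 7 from 132159153 to 132191517 and had 155, 170 and 208 CPM in cisplatin libraries, against 116, 131 and 135 CPM in control libraries. Cisplatin replicate 3 stood highest and the other cisplatin libraries were nearer to the control range (log2 fold change 0.48, SE 0.119, edgeR adjusted p = 0.00685). Prodh, proline dehydrogenase, which starts the breakdown of proline toward glutamate, went the other way. On chromosome 16 from 17877575 to 17908067, it had 108, 127 and 116 CPM in cisplatin and 151, 151 and 159 CPM in control libraries. All cisplatin libraries were below the control libraries by a modest margin (log2 fold change -0.39, SE 0.0912, edgeR adjusted p = 0.00481), and scaling by library totals gave a log2 fold change of 0.03 (adjusted p = 0.765).

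Both transcripts of creatine synthesis fell, the second by less and not with library totals. Gatm, glycine amidinotransferase, on chromosome 2 from 122424948 to 122441799, had 171, 127 and 217 CPM in the cisplatin libraries, against 479, 521 and 520 CPM in the control libraries. It had the lowest log2 fold change of the 10 (-1.56, SE 0.167, edgeR adjusted p = 3.05e-05), a 2.95-fold fall, with only 2.49% of all tested genes lower. The cisplatin libraries were also widely spread, with a mean of 172 ± 45.3 CPM (SD, n = 3) against 506 ± 23.6 CPM (SD, n = 3) in control. Gamt, guanidinoacetate methyltransferase, on chromosome 10 from 80089960 to 80096860, was far less abundant, with 6.23, 6.33 and 7.24 CPM in cisplatin and 8.74, 10.3 and 9.14 CPM in control libraries. Its fall was smaller (log2 fold change -0.51, SE 0.121, edgeR adjusted p = 0.00552), and with library totals its call was lost (log2 fold change -0.08, adjusted p = 0.542). Exons of Ndufs7 on the opposite strand cover 24.9% of its exon bases, and counting without regard to strand gave a log2 fold change of -0.50.

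The paralogs Ddah1 and Ddah2 moved in opposite directions. Ddah1, on chromosome 3 from 145464361 to 145600032, had 86.9, 98.4 and 97.3 CPM in cisplatin libraries, against 155, 169 and 160 CPM in control libraries (log2 fold change -0.78, SE 0.0891, edgeR adjusted p = 5.10e-05). Ddah2, on chromosome 17 from 35277987 to 35281073, had 16.9, 16.4 and 17.8 CPM in cisplatin and 7.78, 6.28 and 6.73 CPM in control libraries. The cisplatin libraries were nearly alike and all far above control (log2 fold change 1.29, SE 0.111, edgeR adjusted p = 7.27e-06). Per kilobase of the canonical transcript, Ddah2 made up 33.3% ± 1.71 (SD, n = 3) of the 2 transcripts in cisplatin kidneys and 10.6% ± 1.44 (SD, n = 3) in control kidneys (two-sided exact permutation test, p = 0.1, which 3 against 3 mice cannot go below). Ddah1 thus remained the more abundant transcript in all 6 libraries.

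Agxt2, a mitochondrial aminotransferase that also acts on dimethylarginine and on β-aminoisobutyrate, lies on chromosome 15 from 10358605 to 10411500. It had 24.1, 20.9 and 34.9 CPM in the cisplatin libraries, against 56.0, 62.6 and 59.0 CPM in the control libraries. All 3 cisplatin libraries were well below control, with replicate 3 the highest (log2 fold change -1.16, SE 0.159, edgeR adjusted p = 0.000175).

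**Figure D2:**
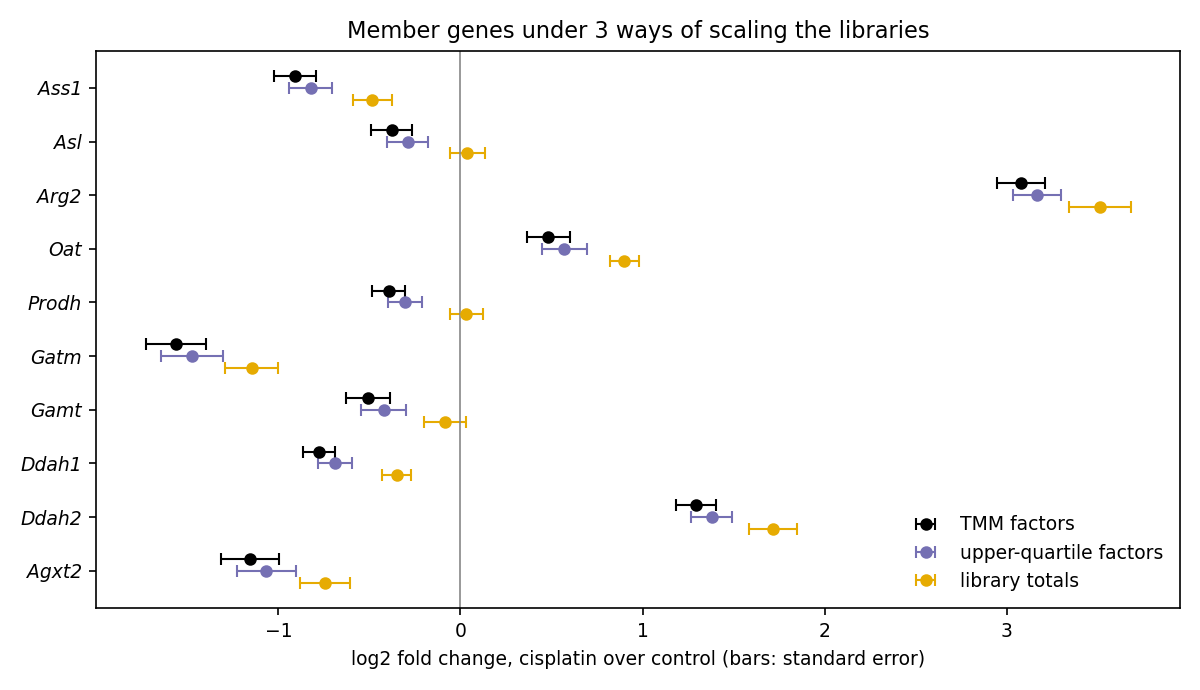
Log2 fold change of cisplatin over control (x axis, bars are standard errors of the edgeR fit, n = 3 each) for the 10 genes (y axis) with TMM factors, upper-quartile factors and library totals. Library totals shift every gene to the right, and Asl and Prodh then lie at 0.04 and 0.03, while Gatm stays at -1.15 and Arg2 at 3.51.

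The choice of scaling moved all genes together. With library totals, the median over all tested genes was 0.48 on the log2 scale, 4 of the 10 genes were lower (8.78% of all tested genes) and 3 were higher (54.3% of all). The 4 were Ass1, Gatm, Ddah1 and Agxt2. Relative to that median, the log2 fold changes with library totals were -0.44 for Asl, -0.44 for Prodh and -0.56 for Gamt.

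Ratios within a library do not depend on the scaling, and 6 pairs of consecutive or parallel steps or of paralogs were compared. The largest shift was that of Arg2 over Oat, transcripts of an enzyme that makes ornithine and of one that uses it. Its log2 count ratio was -2.89, -2.92 and -3.48 in cisplatin libraries, against -5.58, -5.89 and -5.61 in control libraries, a difference of 2.59 (standard error 0.217) or 6.03-fold. Ddah1 over Ddah2 shifted by -2.08 (standard error 0.140), with 2.36, 2.58 and 2.45 in cisplatin and 4.31, 4.74 and 4.57 in control libraries. Gatm over Gamt, transcripts of the 2 steps of creatine synthesis, shifted by -1.09 (standard error 0.184), a 2.13-fold fall of the first transcript against the second.
Prodh over Oat shifted by -0.87 (standard error 0.138), Ass1 over Asl by -0.53 (standard error 0.124) and Agxt2 over Ddah1 by -0.41 (standard error 0.219), which was -0.22 without cisplatin replicate 2. In each of the 6 pairs the groups did not overlap (two-sided exact permutation test, p = 0.1 and adjusted p = 0.1, again the lowest possible). The share of all gene pairs that do so was not computed, and each of the 10 genes already separated the groups singly. For Agxt2 over Ddah1 the gap was narrow, with -1.48 in cisplatin replicate 3 against -1.47 in control replicate 1.

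Levels per kilobase of the canonical transcript were compared between genes in the control kidney. Ass1 was the highest with 554 ± 28.2 CPM per kb (SD, n = 3), followed by Gatm with 211 ± 9.81. Prodh with 64.4 ± 2.03, Oat with 57.6 ± 4.59, Asl with 51.5 ± 3.43 and Ddah1 with 42.6 ± 1.85 followed, and Oat and Asl differed by less than the sum of their SDs. The order of these 4 depends on the length used. Per kilobase of all exons of a gene it was reversed, with 26.8 for Ddah1, 20.5 for Asl, 16.3 for Oat and 14.0 for Prodh, close to the 11.95 of Agxt2, while Ass1 (261) and Gatm (75.4) were still the highest. Agxt2 had 17.0 ± 0.955, Ddah2 5.05 ± 0.559, Gamt 1.87 ± 0.158 and Arg2 1.68 ± 0.191 CPM per kb. The last 2 did not differ beyond their spread, and the value of Gamt rests on a canonical transcript of 5027 bases.
In the cisplatin kidney, Ass1 was still the highest with 295 ± 37.3 CPM per kb (SD, n = 3). Oat with 80.5 ± 12.3 and Gatm with 71.4 ± 18.8 CPM per kb followed and did not differ beyond their spread. Arg2 reached 14.2 ± 1.34 CPM per kb, above the 7.66 ± 2.11 of Agxt2, and Gamt was the lowest with 1.31 ± 0.111.

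Several of these enzymes are known from the proximal tubule, so their levels were set beside a panel of 20 proximal tubule transcripts that holds none of them. The panel fell as well, with 19 of 20 lower and none higher (22.8% and 24.5% of all tested genes). Its median log2 fold change was -1.08, and its summed level 10464 to 12009 CPM in cisplatin and 25540 to 26923 CPM in control libraries. Among its most abundant members was Lrp2, the endocytic receptor megalin, with a log2 fold change of -1.42. Its mean log2 CPM was 8.49, 8.54 and 8.63 in cisplatin libraries, against 9.68, 9.73 and 9.65 in control libraries.
Relative to this panel, Gatm was the only one of the 10 with every cisplatin library below every control library. Its log2 level minus that of the panel was -1.07, -1.56 and -0.87 in cisplatin and -0.78, -0.70 and -0.62 in control libraries, a difference of -0.46 (standard error 0.209), and -0.27 without cisplatin replicate 2. All cisplatin libraries lay below all control libraries on this measure for 2.63% of all tested genes. Agxt2 differed from the panel by about the same amount in both groups, with -3.89, -4.16 and -3.50 in cisplatin and -3.87, -3.76 and -3.76 in control libraries, and the groups overlapped (difference -0.05, standard error 0.193, with 0.10 without cisplatin replicate 2 and -0.22 without cisplatin replicate 3).
The other 8 genes lay higher relative to the panel in every cisplatin library, as did 90.6% of all tested genes. Among these, Ass1 differed by 0.21 (standard error 0.102), which was 0.11 without cisplatin replicate 2, and Ddah1 by 0.35 (standard error 0.0461), whereas Asl differed by 0.75, Prodh by 0.73 and Gamt by 0.63. Oat differed by 1.60, Ddah2 by 2.42 and Arg2 by 4.17 (standard error 0.161), against a median of 1.17 over all tested genes. The exact permutation p was 0.1 (adjusted p = 0.111) for each gene but Agxt2, with 0.7 (adjusted p = 0.7).

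**Figure D3:**
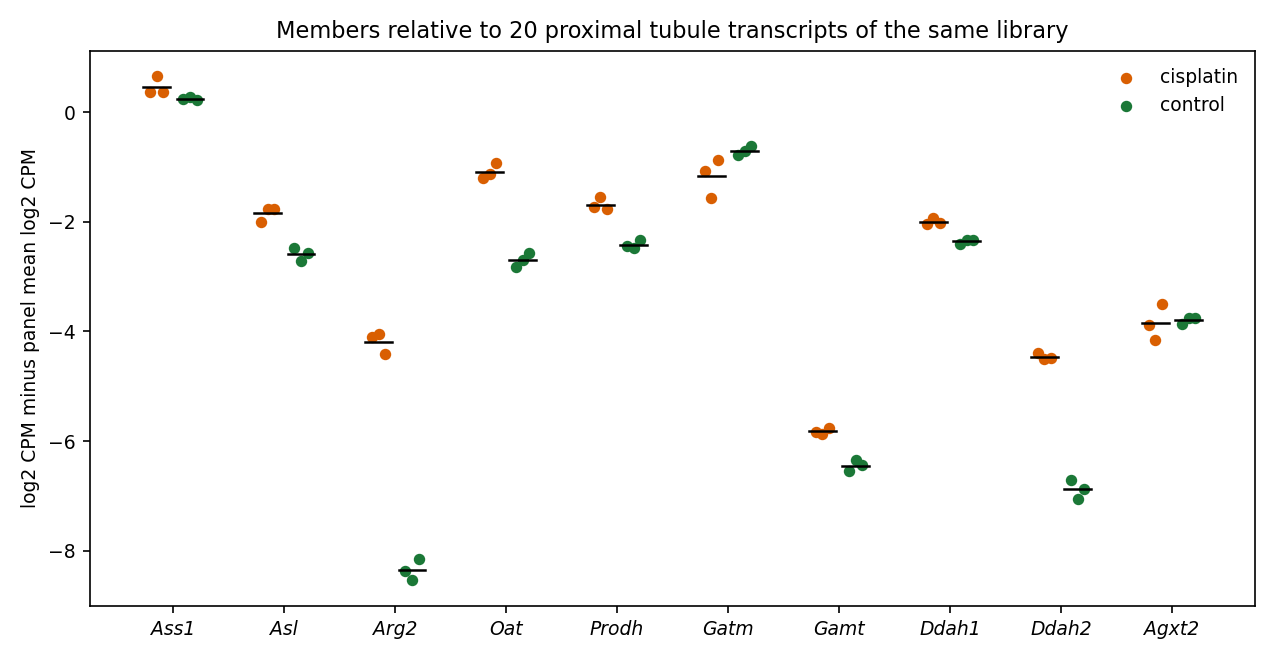
Log2 CPM of each gene minus the mean log2 CPM of 20 proximal tubule transcripts of the same library (y axis), for the 3 cisplatin and 3 control libraries; each dot is a library and black lines are means. Gatm is the gene with all cisplatin dots below the control dots, Agxt2 overlaps, and Arg2 stands 4.17 higher in cisplatin libraries.

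Markers of proximal tubule segments and of several other cells also differed between the groups. Over all tested genes, 22.8% were lower and 24.5% higher. The markers of the last proximal tubule segment, S3, were lower in 4 of 5. They summed to 250 to 271 CPM in cisplatin and 2034 to 2165 CPM in control libraries. Those of the first segments, S1 and S2, were lower in 5 of 5. Their sum was 1527 to 1566 CPM in cisplatin and 3116 to 3459 CPM in control libraries. All 8 macrophage markers were tested, 7 were higher and none lower, with a summed level of 173 to 215 CPM in cisplatin and 76.0 to 90.2 CPM in control libraries; Csf1r and C1qa, the most abundant over the libraries, had log2 fold changes of 0.20 (adjusted p = 0.255) and 1.64. The fibroblast and pericyte markers were higher in 4 of 5, summing to 317 to 517 CPM in cisplatin and 163 to 197 CPM in control libraries. The injured tubule markers rose in 4 of 4, summing to 212 to 245 CPM in cisplatin and 9.16 to 11.3 CPM in control libraries. Of the 6 endothelial markers 3 were lower and none higher, summing to 196 to 238 CPM in cisplatin and 280 to 288 CPM in control libraries. Of the 7 collecting duct markers 4 were higher and none lower, summing to 257 to 320 CPM in cisplatin and 183 to 194 CPM in control libraries. The distal tubule markers were lower in 3 of 4, and those of the thick ascending limb were lower in 2 and higher in 2 of 5. None of the 3 podocyte markers passed the test. The part of these cells in the rise of Arg2, Ddah2 and Oat was not tested. The 4 liver markers summed to 29.8 to 47.3 CPM in cisplatin and 240 to 284 CPM in control libraries, with 2 of 3 tested lower. Most of the control sum came from Ttr (22.3 CPM in cisplatin and 255 CPM in control kidneys), whereas Serpina1a, uncertain because it has near-identical copies, had 13.3 CPM in cisplatin and 9.56 CPM in control kidneys, Alb 1.34 CPM in cisplatin and 3.84 CPM in control kidneys, and Apoa1 under 1 CPM in both.

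A further 43 genes of the same pathways, in 7 lists, were all present in the files, and 30 were tested. Of these, 9 were lower, 9 were higher and 12 did not pass, with a median log2 fold change of 0.08, where 22.8% of all tested genes were lower and 24.5% higher. With library totals 4 of the 30 were lower and 18 higher, against 8.78% lower and 54.3% higher of all tested genes. The 13 genes not tested had too few counts and include every other urea cycle enzyme listed, Cps1, Otc, Arg1 and Nags, as well as Nos1, Nos2, Prmt8, Ckm, Ckmt2, Pycr1, Agxt, Slc7a3 and Slc25a2. Prmt8 and Ckmt2 had no count in any library.

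The other enzymes of proline and ornithine were all called, 3 lower and 3 higher of the 6 tested (22.8% and 24.5% of all tested genes). Odc1, which turns ornithine into the polyamine putrescine, had 114, 140 and 153 CPM in the cisplatin libraries, against 1195, 1084 and 1343 CPM in the control libraries (log2 fold change -3.15, SE 0.142, edgeR adjusted p = 7.92e-08). In these kidneys the ornithine-making Arg2 and the ornithine-using Oat were thus higher and Odc1 lower. Aldh4a1, which completes the breakdown of proline and of the product of Oat in the mitochondrion, had 82.4, 83.5 and 74.7 CPM in cisplatin and 171, 191 and 166 CPM in control libraries (log2 fold change -1.13, standard error 0.0939).
Aldh18a1, which makes the shared precursor of proline and ornithine from glutamate, was higher, with 5.34, 5.66 and 3.80 CPM in cisplatin and 2.02, 2.53 and 2.31 CPM in control libraries (log2 fold change 1.12, standard error 0.189). Pycr3, a reductase that forms proline, was lower (log2 fold change -0.83). Prodh2, the hydroxyproline dehydrogenase related to Prodh, rose (log2 fold change 0.77, SE 0.136, edgeR adjusted p = 0.000875). Per kilobase of the canonical transcript, its share of Prodh and Prodh2 was 15.4% ± 1.14 (SD, n = 3) in cisplatin and 7.50% ± 1.06 (SD, n = 3) in control kidneys (exact two-sided permutation p = 0.1, the lowest possible). The size of this share depends on the length used. In control kidneys, Prodh2 had 5.23 and Prodh 64.4 CPM per kb of the canonical transcript, against 3.39 and 14.0 per kb of all exons.

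On the creatine side, Slc16a12, a creatine transporter of the tubule cell membrane, had 90.9, 94.6 and 116 CPM in cisplatin libraries, against 146, 151 and 148 CPM in control libraries (log2 fold change -0.56, standard error 0.104). The cytosolic creatine kinase Ckb was also lower (log2 fold change -0.50), and the mitochondrial Ckmt1 was higher (0.40). Slc6a8, the sodium-dependent creatine importer, had 60.9 ± 6.97 CPM (SD, n = 3) in cisplatin and 66.5 ± 1.84 CPM (SD, n = 3) in control kidneys and did not pass (log2 fold change -0.13, edgeR adjusted p = 0.298). The calls of Slc16a12 and Ckb were lost with library totals.

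Of the genes that make methylarginine or nitric oxide, 1 was lower and 1 higher of 9 tested with TMM factors (22.8% and 24.5% of all tested genes). Of 8 tested arginine methyltransferases, Prmt1, the main source of asymmetric dimethylarginine, rose (log2 fold change 0.62, SE 0.0994, edgeR adjusted p = 0.000489), with 15.7, 15.1 and 14.1 CPM in cisplatin and 9.79, 9.30 and 10.1 CPM in control libraries. Prmt5, which makes the symmetric form, had a log2 fold change of -0.28 (edgeR adjusted p = 0.0251). Its log2 fold change was 0.15 with library totals, and its call was lost with upper-quartile factors (-0.20, adjusted p = 0.0940) and without any single control library (-0.30, -0.30 and -0.26, adjusted p = 0.0595 to 0.0974). The remaining 6 did not pass. With library totals all 6 were called higher (edgeR adjusted p = 0.00176 to 0.0450), as were 54.3% of all tested genes. Nos3, the endothelial nitric oxide synthase and the only synthase tested, had 3.72, 3.15 and 2.44 CPM in cisplatin and 3.40, 1.61 and 1.68 CPM in control libraries, which overlap (log2 fold change 0.47, edgeR adjusted p = 0.196). It was called higher without control replicate 1 (0.92, edgeR adjusted p = 0.0137) and with library totals (0.90, edgeR adjusted p = 0.0457). Azin2, an antizyme inhibitor, was higher (log2 fold change 1.06) and Agmat, an agmatinase family member with 0.436 to 1.27 CPM over the 6 libraries, was lower (log2 fold change -1.13, adjusted p = 0.0108; -0.96 and adjusted p = 0.0547 without control replicate 2; -0.70 and adjusted p = 0.0715 with library totals).

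**Figure D4:**
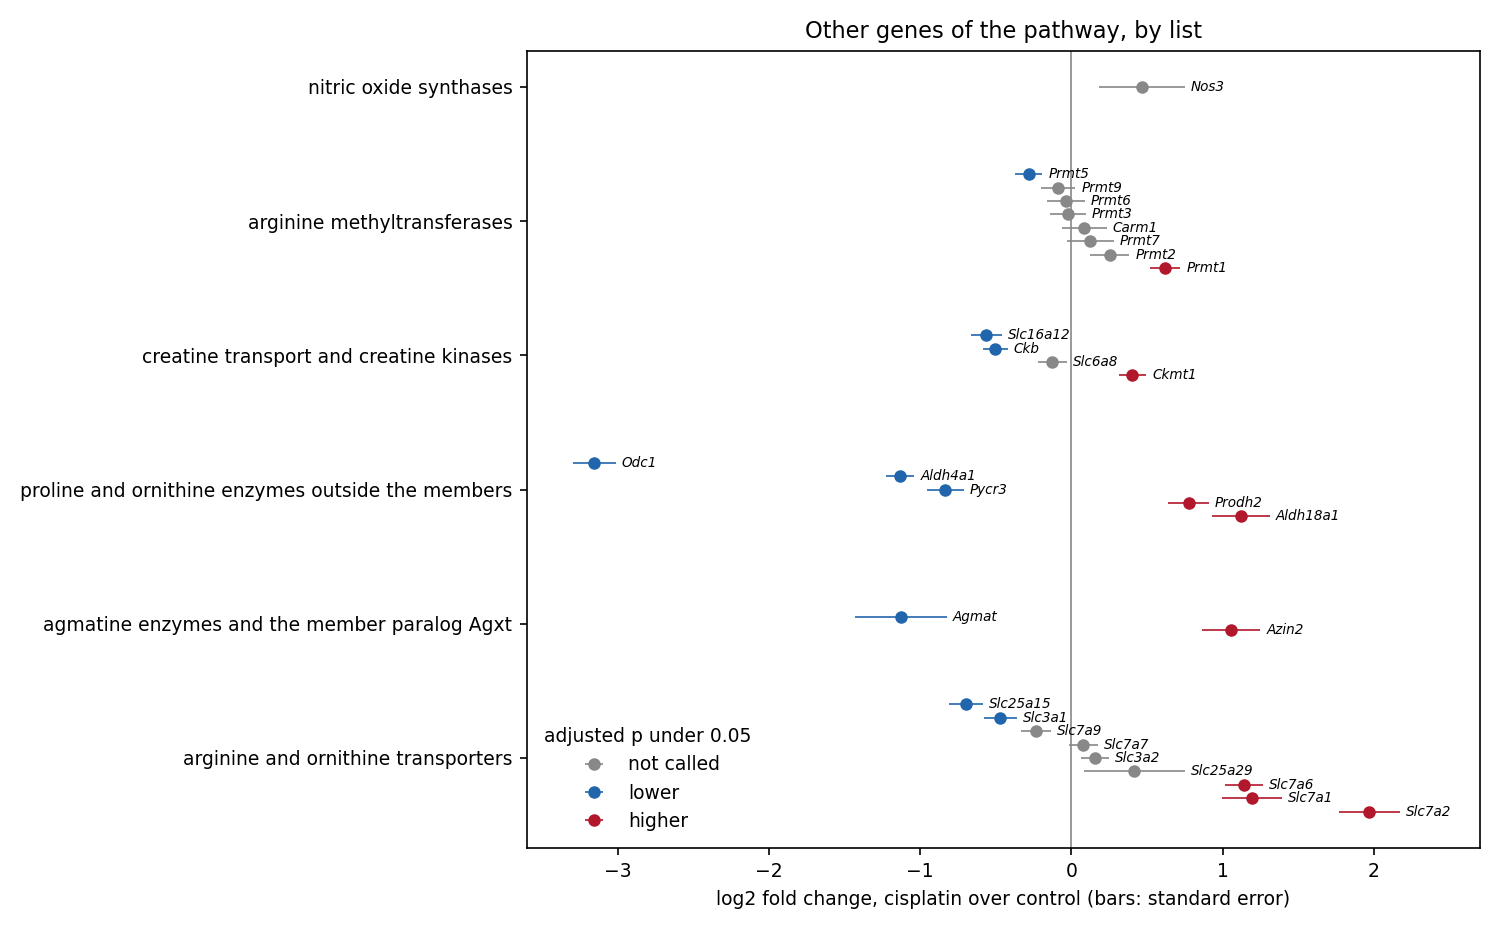
Log2 fold change of cisplatin over control (x axis, bars are standard errors, n = 3 each) for tested genes of 6 of the 7 pathway lists (y axis), with 1 tested gene left out; genes past the threshold are drawn in blue (lower) or red (higher) and the others in grey. Odc1 lies lowest at -3.15 and Slc7a2 highest at 1.97.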

How the data were processed

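Total RNA of whole kidney was made into stranded libraries (QIAseq kit) and sequenced as read pairs, 1 library for each of 3 cisplatin and 3 control mice. The authors trimmed adapters with Cutadapt, aligned pairs to mm39 with STAR and deposited raw counts per gene; the annotation release and settings: not given in the sources used here. Counts on the strand of the transcript (column 4, 96.7% to 97.2% of stranded counts) were used, without STAR's 4 summary lines. Pairs mapped to several places (11.5% to 12.9%) are in no gene's count. Names, coordinates and transcript lengths came from GENCODE vM39 (GRCm39), by Ensembl ID without version (56017 of 56691).

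All genes were fitted together in edgeR 4.0.16 (filterByExpr with minimum count 10 and total 15, TMM, quasi-likelihood F test, Benjamini-Hochberg) under R 4.3.3, and the fit was tested on simulated data. Log2 CPM used a prior count of 2, and count ratios 0.5 added to both counts. Permutation tests used scipy 1.17.1. Members and lists were chosen with earlier results of these data known. Named were the 10 members, and per list up to 3 genes per direction with the smallest adjusted p and those not tested; Slc6a8, Nos3 and the transporters Slc7a7, Slc7a9, Slc3a2 and Slc25a29, which did not pass, and marker genes of the adrenal gland and liver were named after their values were seen. Alternatives were DESeq2 1.42.0, other scalings and filters, counts without strand, a replicate block and leaving out each library. Some items are counted in their lists but not reported here by name.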

Additional observations from a re-analysis of the deposited data

How the results depend on the processing

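Counts of called genes (7 lower and 3 higher among the 10, 9 and 9 among the other pathway genes) stayed within 1.5 times under every alternative but library totals, which gave 4 lower among the 10, and 4 lower and 18 higher among the others. Asl (0.0372), Prodh (0.0328) and Prmt5 (0.149) changed sign there on the log2 scale. That scaling moved the median of all tested genes to 0.48, against 0.05 with TMM factors. The titles number the mice 1 to 3 in both groups; same-numbered libraries deviated together only weakly (r = 0.13, 0.14 and 0.10 across genes, under 0.1 before rounding for the third), although each library correlated best with its own number. With the replicate block, 7 and 3 of the 10 and 9 and 9 of the others were called, and no call of a member was lost. Leaving out a library gave 6 to 7 lower and 3 higher of the 10, and 7 to 11 lower and 8 to 9 higher of the others. In these fits, 18% to 26.1% of all tested genes were lower and 18.7% to 25.2% higher, depending on the library left out. Ratios of Arg2 rest on 45 to 57 control counts, and 3 mice per group cannot reach a permutation p below 0.1. Relative to the panel median in place of the mean, Gamt differed by 0.73 and Ddah1 by 0.45.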

Other observations

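Of 11 transporters of arginine and ornithine 9 were tested, of which 2 were lower, 3 were higher and 4 did not pass. Over all tested genes, 22.8% were lower and 24.5% higher. The cationic amino acid transporters Slc7a1 and Slc7a2 and the y+L transporter subunit Slc7a6 were higher in the cisplatin-treated kidney. Slc7a2 had 27.4, 16.3 and 17.2 CPM in cisplatin libraries, against 5.80, 4.63 and 5.10 CPM in control libraries (log2 fold change 1.97, SE 0.202, edgeR adjusted p = 2.30e-05). Slc7a1 had 16.0, 14.5 and 9.07 CPM in cisplatin and 6.10, 6.28 and 5.05 CPM in control libraries (log2 fold change 1.19, standard error 0.198), and Slc7a6 was 1.14 higher on the log2 scale (SE 0.126).

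Slc3a1, the heavy subunit of the brush border importer of cystine and dibasic amino acids, and Slc25a15, the mitochondrial ornithine carrier, were lower. Slc25a15 had 77.6, 104 and 98.8 CPM in cisplatin libraries, against 149, 151 and 153 CPM in control libraries (log2 fold change -0.70, SE 0.111, edgeR adjusted p = 0.000474). For Slc3a1 the log2 fold change was -0.47 (SE 0.107), and this call was lost with library totals (-0.05, adjusted p = 0.568). Slc7a9, the partner of Slc3a1, had 41.6, 44.4 and 53.1 CPM in cisplatin and 54.7, 55.4 and 53.4 CPM in control libraries and did not pass (edgeR adjusted p = 0.0768). Slc7a7, Slc3a2 and Slc25a29 did not pass either. With library totals, Slc7a7 (log2 fold change 0.50, edgeR adjusted p = 0.00123) and Slc3a2 (0.59, edgeR adjusted p = 0.00171) were called higher, as were 54.3% of all tested genes. Slc25a29 was not called there. Reads on the strand opposite to the 10 genes were at most 8 per library for every gene but Arg2, for which they numbered 22, 20 and 19 in cisplatin and 34, 18 and 24 in control libraries, on the strand of Vti1b.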
